A study of Homo sapiens with 3 samples.

Results

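The apolipoprotein genes described here are APOE, APOC1, APOD, APOL1, APOL2, APOL6 and CLU, 7 of the 29689 genes in the deposited expression table. They were chosen by name from that table, with the levels in the 3 tumors known. Levels and changes below are therefore descriptions. The RNAseq data came from tumors of SUM-149, a human triple-negative breast cancer (TNBC) cell line, injected with Matrigel into the mammary fat pads of female Nu/Nu mice. These athymic mice lack mature T cells but keep macrophages and other host cells. There was 1 library for a vehicle tumor, 1 for a tumor given dinaciclib, a CDK2 inhibitor (CDK2i), for 10 days, and 1 for a tumor given the EZH2 inhibitor (EZH2i) EPZ6438 for 10 days. The study's methods also name EPZ-6438 for tumor-bearing mice, but a legend on xenografts of this line gives another EZH2 inhibitor, GSK343. With 1 library per condition there was no replicate error and no p-value, and a tumor and its treatment cannot be told apart. The sources do not say whether a library was 1 tumor or a pool, or whether mouse reads were removed.

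Apolipoproteins bind lipids. APOE and APOC1 sit on the surface of lipoprotein particles, where APOE is the ligand for cell-surface lipoprotein receptors and APOC1 limits the uptake and lipolysis of these particles. Liver and macrophages are their best-known sources, and both genes are targets of the oxysterol-activated LXR nuclear receptors. APOD is a lipocalin, a small carrier of hydrophobic ligands, first purified in quantity from breast cyst fluid. CLU encodes clusterin, also named apolipoprotein J, a secreted chaperone. APOL1, APOL2 and APOL6 belong to a gene cluster on chromosome 22 that is induced by interferons and whose products, apart from secreted APOL1, act inside cells.

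APOE and APOC1 are neighbors. On GRCh37, the build named for the deposited values, APOE spans 45409048 to 45412650 and APOC1 45417504 to 45422606 of chromosome 19, both on the plus strand with 4 exons in the reference transcript and 4853 bases between them. Of the 7 genes, these 2 were matched to the table of RefSeq promoters. The 250 bases before the most upstream of 3 listed APOE starts are shown because APOE was the most abundant member and was lower in both treated tumors. They come from GRCh38.p14, plus strand, chr19:44905546-44905795. By sequence they match 45408803 to 45409052 of GRCh37, where 5 of the bases lie in an annotated exon of APOE. The APOC1 entry is not shown because 132 of its 250 bases lie in annotated APOC1 exons. Capitals mark the GC box letters GGGCGG on either strand and the TATA-like letters TATAA.
APOE: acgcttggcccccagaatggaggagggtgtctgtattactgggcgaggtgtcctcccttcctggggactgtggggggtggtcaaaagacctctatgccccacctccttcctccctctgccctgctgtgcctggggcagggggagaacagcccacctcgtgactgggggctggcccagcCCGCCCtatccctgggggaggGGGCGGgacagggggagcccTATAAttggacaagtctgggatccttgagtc
This window had a GC content of 64.8%. It held 2 GC boxes, which began 72 and 51 bases before the start, and TATAA at 31 bases. Of all 35116 promoter windows of this length, 42.6% held a GC box and 18.9% held TATAA or its reverse complement. No marked stretch overlapped another.

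Levels are given as FPKM, fragments scaled to gene length and library depth, so that they can be compared between genes. Changes are differences of log2 FPKM. Intervals of 95% come from the approximate number of fragments behind a value and cover counting error only. The depths recovered from the low values were, in units of 1000000 fragments, 16.79 for vehicle, 19.14 for CDK2i and 17.53 for EZH2i. A gene counted as called when it differed more than 2-fold and its higher value was above log2 FPKM 3 (8 FPKM), the study's thresholds without its p-value cutoff. The tumors strongly expressed basal keratin genes, with KRT5, KRT6A, KRT14 and KRT17 between 435.3 and 6269 FPKM. KRT18, which encodes the paper's luminal marker CK18, was at 29.6, 42.1 and 35.1 FPKM across vehicle, CDK2i and EZH2i. PGR was at or near 0 and ESR1 did not exceed log2 FPKM 0.14, while ERBB2 was expressed at log2 FPKM 4.93, 4.92 and 4.46. The basal keratin genes KRT5, KRT6A, KRT14 and KRT17 were called higher in CDK2i than in vehicle, by 1.17 to 1.35 on the log2 scale.

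APOE was the most abundant apolipoprotein transcript of the vehicle tumor and was several times lower in both treated tumors. It was at 128.1 FPKM in vehicle (95% counting interval 123.1 to 133.2, about 2508 fragments), 23.2 in CDK2i (21.2 to 25.3) and 11.9 in EZH2i (10.4 to 13.5). The 3 counting intervals did not overlap. In rank it went from place 382 among all genes in vehicle to 2727 in CDK2i and 5388 in EZH2i. The log2 change from vehicle was −2.46 in CDK2i (−2.60 to −2.33), where 32 of the 6632 genes that reached the expression minimum were lower still. In EZH2i it was −3.43 (−3.63 to −3.24), with 6 of 7414 genes lower still.

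APOC1 was also lower in both treated tumors. It was at 49.6 FPKM in vehicle (45.0 to 54.5, about 428 fragments), 3.87 in CDK2i (2.73 to 5.30, about 38 fragments) and 14.9 in EZH2i (12.46 to 17.61). In the deposited values APOC1 was thus lowest in the CDK2i tumor, and APOE in the EZH2i tumor. For APOE this order did not hold when a trend of the changes with transcript GC content and length was removed. The difference between EZH2i and CDK2i was then 0.16 in place of −0.97. The log2 changes of APOC1 were −3.68 in CDK2i (−4.20 to −3.20), with 3 of 6632 genes lower still, and −1.73 in EZH2i (−2.03 to −1.45), with 55 of 7414 lower still.

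**Figure D1:**
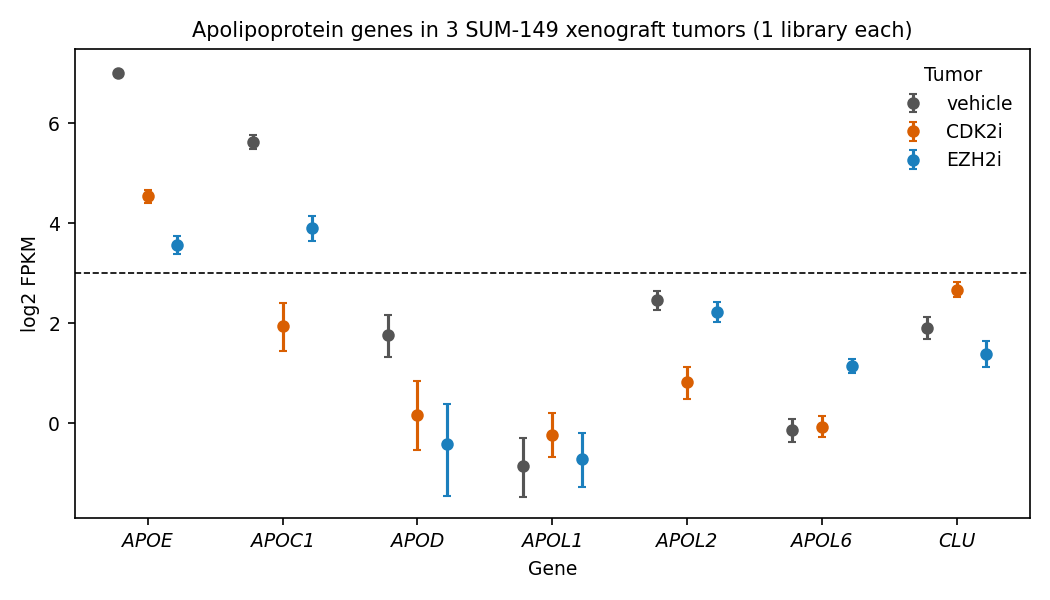
Log2 FPKM of the 7 apolipoprotein genes in the vehicle, CDK2i and EZH2i tumors, 1 library each. Bars are 95% Poisson counting intervals and the dashed line is the expression minimum of log2 FPKM 3. APOE and APOC1 are the genes above the line in vehicle, and APOC1 in CDK2i lies below it at 1.95.

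The ratio of the neighbors changed accordingly. APOE stood at 2.58 times the FPKM of APOC1 in vehicle, 6.01 times in CDK2i and 0.798 times in EZH2i. Compared directly, without the vehicle library, APOC1 was 1.95 higher on the log2 scale in EZH2i than in CDK2i (1.42 to 2.51), while APOE differed by −0.97 (−1.19 to −0.74), just inside the fold threshold, or by 0.16 with the GC and length trend removed. Of 5 further neighbors on chromosome 19 with a value above 0 in each tumor, 4 were above vehicle in CDK2i and 4 were below it in EZH2i. Against vehicle 1 was called, lower in EZH2i. Over all genes 8.07% were called lower and 3.27% higher in CDK2i, and 4.42% lower and 8.93% higher in EZH2i. Nothing is read from these neighbor counts. TOMM40, a mitochondrial import channel gene that starts at −15.2 kb from the APOE start, was at 54.46, 59.96 and 46.21 FPKM across vehicle, CDK2i and EZH2i, log2 changes of 0.14 and −0.24. CLPTM1 changed by 0.47 and −0.27 and RELB, an NF-κB subunit gene, by −0.31 and 0.21. PVRL2 changed by 0.42 and −0.74. BCAM, which encodes a laminin-binding adhesion molecule, had log2 FPKM levels of 6.41, 6.79 and 5.17. Its change of 0.38 in CDK2i and −1.24 in EZH2i was called in the latter, and was −0.66 there with the GC and length trend removed. In the deposited values BCAM (−1.625) and PVRL2 (−1.163) were called lower in EZH2i than in CDK2i, against 6.53% of 7394 genes. APOC2 and APOC4 were listed at 0 or near 1 fragment in all 3 tumors, and the pseudogene APOC1P1 was at log2 FPKM −2.03 in vehicle, 0 FPKM in CDK2i and log2 FPKM −2.68 in EZH2i.

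**Figure D2:**
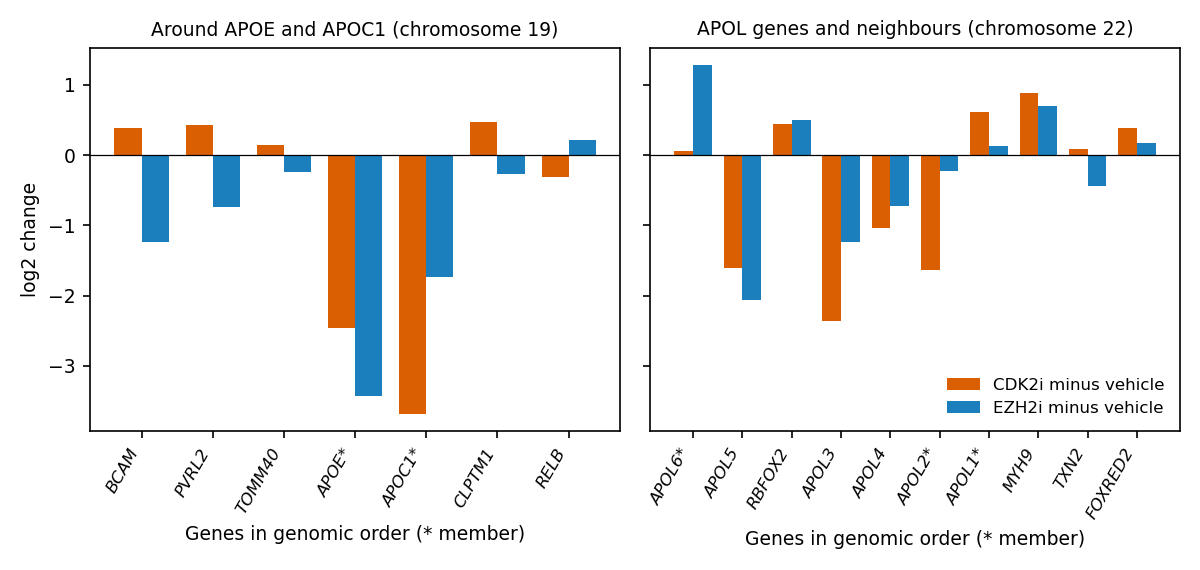
Log2 change from vehicle (y axis) in CDK2i and EZH2i for genes in genomic order (x axis) around APOE and APOC1 on chromosome 19 and around the APOL genes on chromosome 22; stars mark the described members, and genes listed at 0 in any of the tumors are left out. APOE reaches −3.43 and APOC1 −3.68, while TOMM40 between BCAM and APOE stays at 0.14 and −0.24.

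APOE and APOC1 were the members that reached the expression minimum, and both were called lower in both comparisons. Of all genes that reached it, 8.07% were called lower and 3.27% higher in CDK2i, and 4.42% lower and 8.93% higher in EZH2i. Because the members were chosen with these values known, and a gene reaches the minimum through its higher value, nothing is read from these counts. Between the treated tumors APOC1 was called higher in EZH2i than in CDK2i, against 17.5% of 7394 genes called higher and 6.53% lower. Without the expression minimum, over genes listed above 0 in both tumors, 19.4% of genes were more than 2-fold lower and 8.63% higher in CDK2i, and 10.9% lower and 16.1% higher in EZH2i. By that looser rule 4 of the 7 members were lower and 0 higher in CDK2i, and 3 were lower and 1 higher in EZH2i. The median change of the 7 was −1.60 in CDK2i and −0.52 in EZH2i, against −0.19 and 0.19 over the 20031 genes with no value listed at 0. For 11109 expressed genes (average log2 FPKM over 1) the medians were −0.11 and 0.19, so that relative to the typical expressed gene the decreases were slightly smaller in CDK2i and slightly larger in EZH2i. Both comparisons share the vehicle library.

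**Figure D3:**
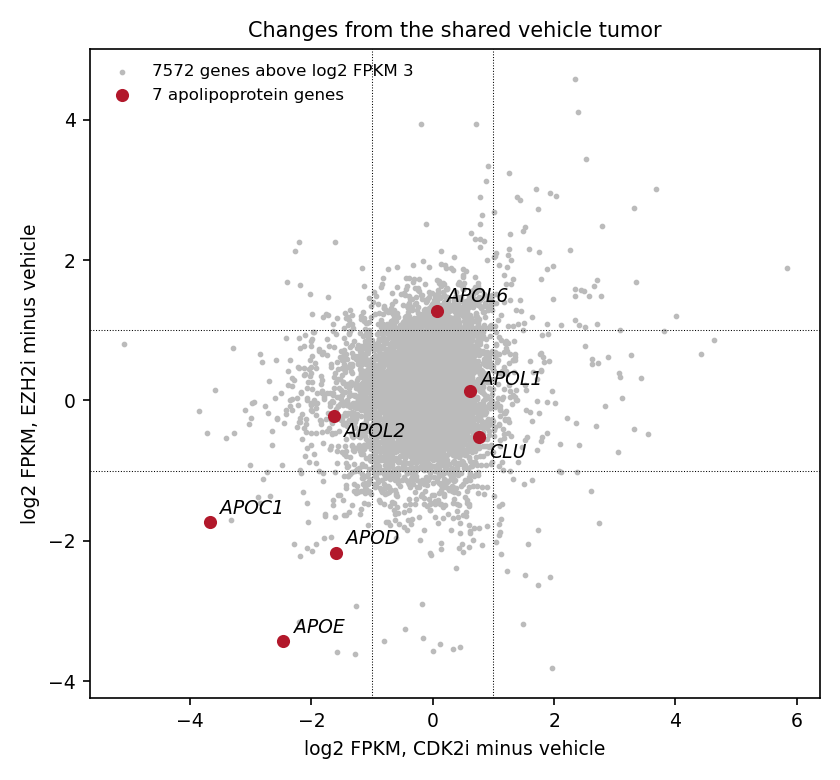
Log2 change from vehicle in CDK2i (x axis) and EZH2i (y axis) for 7572 genes whose highest value was above log2 FPKM 3 (grey) and the 7 apolipoprotein genes (red, labeled), with dotted lines at a 2-fold change. APOE, APOC1 and APOD lie in the lower left, and APOL1, APOL6 and CLU to the right of 0 on the x axis. Both axes share the vehicle tumor, which by itself spreads points along the diagonal.

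The size of the APOE decrease in EZH2i depended on whether a joint trend with GC content and length was removed. The change in EZH2i ran with transcript GC content across 10185 expressed genes (Spearman rho −0.58, against 0.03 in CDK2i) and with transcript length (0.49 against 0.09), a description across genes of single libraries. The APOE transcript had a GC content of 69.0%, above that of 99.3% of these genes, and a length of 1166 bases, in the shortest 10.2%. The APOC1 transcript, at 514 bases, was shorter than all but 1.39%. With the GC and length trend removed, an alternative chosen after seeing the data, the APOE change was −2.69 in CDK2i and −2.53 in EZH2i, so that the difference between the treated tumors became 0.16. The APOC1 change was −3.53 and −0.98, so that in EZH2i it no longer passed 2-fold. Under the other 5 scalings and pseudocounts APOE and APOC1 stayed more than 2-fold lower in both tumors.

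**Figure D4:**
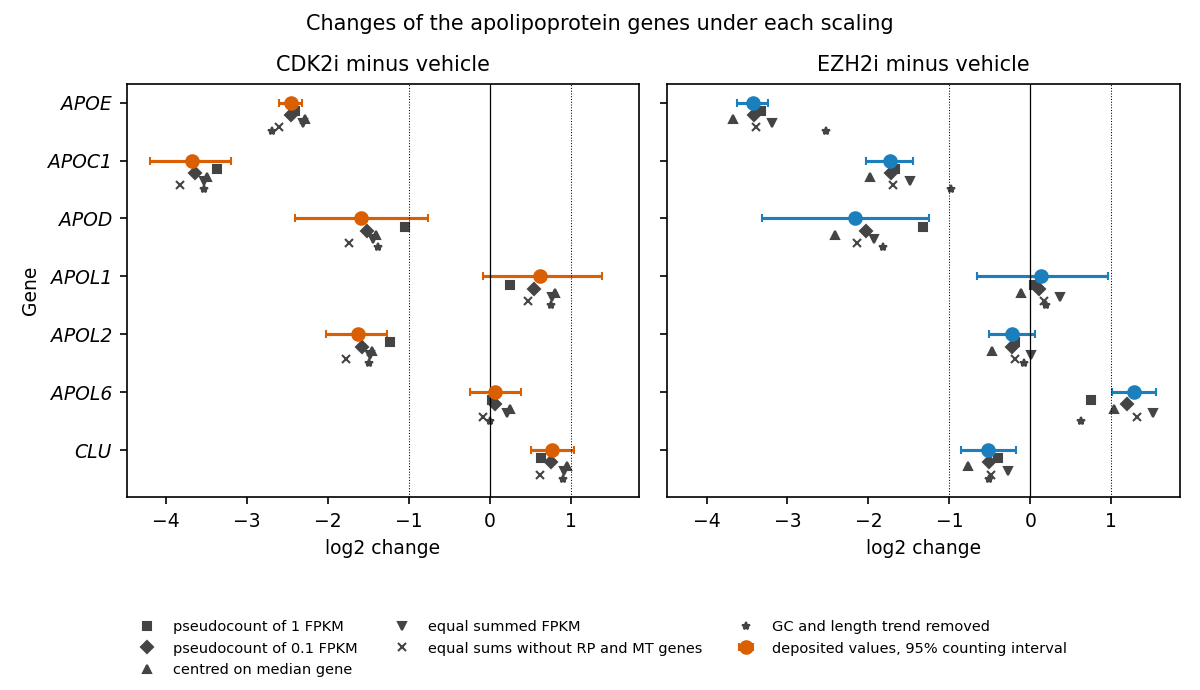
Log2 change from vehicle (x axis) of each gene (y axis) in CDK2i (left) and EZH2i (right): colored points are the deposited values with 95% counting intervals, dark symbols the pseudocounts and scalings tried (RP, ribosomal protein; MT, mitochondrially encoded), and dotted lines a 2-fold change. In EZH2i the star, the value with the GC and length trend removed, moves APOE from −3.43 to −2.53 and APOC1 from −1.73 to −0.98, and APOL6 from 1.28 to 0.62.

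APOD, on the minus strand of chromosome 3 (195295576 to 195310904), was weakly expressed and lower in both treated tumors. It was at 3.40 FPKM in vehicle (2.50 to 4.48, about 49 fragments), 1.12 in CDK2i (0.693 to 1.80) and 0.755 in EZH2i (0.363 to 1.30). The vehicle interval lay above both others, which overlapped each other. The log2 changes of −1.60 (−2.40 to −0.76) and −2.17 (−3.31 to −1.25) exceeded 2-fold as estimates, but all 3 values were below the expression minimum and the change in CDK2i was compatible with less than 2-fold by counting error. The difference between EZH2i and CDK2i, −0.57, had a counting interval from −1.88 to 0.48.

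CLU, on chromosome 8, was the member with its highest level in the CDK2i tumor other than APOL1. It was at 3.75 FPKM in vehicle (3.21 to 4.35), 6.38 in CDK2i (5.72 to 7.11) and 2.61 in EZH2i (2.18 to 3.11), 3 intervals that did not overlap. Its changes from vehicle, 0.77 and −0.52, were within 2-fold. The direct difference between the treated tumors was larger, −1.29 in EZH2i against CDK2i (−1.59 to −0.99). As an estimate it stayed past 2-fold under all 6 alternatives, from −1.72 to −1.03. All 3 levels were below the expression minimum, and the counting interval of this difference reached just inside 2-fold.

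The APOL genes of chromosome 22 did not move as a group. APOL2 (36622255 to 36636000, minus strand) was at 5.50 FPKM in vehicle (4.80 to 6.26), 1.77 in CDK2i (1.40 to 2.19) and 4.70 in EZH2i (4.07 to 5.39). Only the CDK2i value stood apart, with a log2 change of −1.64 (−2.02 to −1.27), while in EZH2i the change was −0.23 (−0.51 to 0.06). APOL6 (36044493 to 36064451) was instead highest in EZH2i, at 2.21 FPKM (1.996 to 2.441) against 0.913 in vehicle and 0.953 in CDK2i. Its change of 1.28 in EZH2i (1.01 to 1.56) was 0.62 with the GC and length trend removed; its transcript, 10065 bases long with a GC content of 40.3%, was longer than 96.7% of expressed genes. Between the treated tumors APOL2 was 1.41 higher in EZH2i than in CDK2i (1.03 to 1.80; 0.98 after median centring), and APOL6 1.22 higher (0.63 with the trend removed). APOL1 (36649117 to 36663576), the trypanolytic factor of human serum, was at 0.556 FPKM in vehicle (0.362 to 0.812), 0.853 in CDK2i (0.629 to 1.15) and 0.609 in EZH2i (0.413 to 0.874). Its 3 intervals overlapped, with 26 to 46 fragments per library. The paralogs not among the members were as weak. APOL4 was at 0.942, 0.459 and 0.568 FPKM and APOL5 at 0.663, 0.218 and 0.159, the latter from about 16, 6 and 4 fragments, and APOL3 stood at about 5 fragments or fewer. The APOL genes are similar in sequence, so reads could have been divided between them by the authors' counting. Neighboring MYH9, a non-muscle myosin gene, changed by 0.89 and 0.70, RBFOX2 by 0.44 and 0.50, TXN2 by 0.08 and −0.44 and FOXRED2 by 0.38 and 0.17.

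Summed over the 19 apolipoprotein genes of the table, the FPKM level was 205.7 for vehicle, 52.3 for CDK2i and 54.8 for EZH2i. APOE and APOC1 made up 86.3% of this sum in vehicle, 51.8% in CDK2i and 48.9% in EZH2i. Without them the sum was 28.1, 25.19 and 28.02 FPKM, so the difference in the family total lay in these 2 genes. Besides the 7 members, APOO and APOOL, which encode subunits of the MICOS complex of mitochondrial cristae rather than plasma apolipoproteins, had the highest levels. APOO was at 7.03, 8.22 and 9.55 FPKM and APOOL at 2.75, 4.37 and 4.86. APOM, a lipocalin of high-density lipoprotein, was at 2.42, 0.750 and 1.83 FPKM, a log2 change of −1.69 in CDK2i (−2.83 to −0.65) from about 31 fragments in vehicle. APOB, APOC2, APOC4, APOA5 and APOF were listed at 0 or at about 1 fragment. APOA1, APOA2, APOA4, APOC3 and APOH are not analysed here.

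Receptors that take up APOE particles and the genes of lipid efflux changed in both directions. Of 11 receptor and regulator genes, 7 reached the minimum in each comparison with vehicle, with 0 called in CDK2i and 1 called higher in EZH2i. This was LRP8, an APOE receptor best known in neurons, at 10.0, 10.9 and 23.0 FPKM, with a change of 1.20 that was 0.95 after median centring and 0.80 when the trend with both GC content and length was removed. SORL1, a sorting receptor for APOE-bound cargo and singled out after its values were seen, stayed below the minimum at 0.443, 2.29 and 4.11 FPKM, changes of 2.37 and 3.21. LRP1 changed by 0.29 and −0.11 and TREM2, an APOE-binding receptor of myeloid cells, by 0.28 and −0.42, neither past 2-fold. The list median was 0.28 in CDK2i and −0.06 in EZH2i over all 11, and 0.28 and −0.11 over the 7. Over all genes with no value at 0 the medians were −0.19 and 0.19, and over those reaching the minimum −0.04 and 0.15. Of the latter, 8.07% were called lower and 3.27% higher in CDK2i, and 4.42% lower and 8.93% higher in EZH2i. Nothing is read from the counts of this list.

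Of 12 genes of lipid efflux, transfer and lipolysis, 5 reached the minimum in CDK2i, with 0 called, and 6 in EZH2i, with 1 called higher. This was LIPG, which encodes endothelial lipase, at 7.10, 4.92 and 20.3 FPKM (EZH2i change 1.52, and 0.97 with the trend removed). ABCA1, the cholesterol exporter that loads APOE with lipid, was at 1.29, 0.543 and 1.81 FPKM. Its changes were −1.25 in CDK2i (−1.59 to −0.91) and 0.49 in EZH2i, below the expression minimum. The medians were −0.05 and 0.49 over the 11 with no value at 0, and 0.14 and 0.33 over those reaching the minimum, so the sign in CDK2i differed. Of 11 LXR receptors and targets, 7 reached the minimum, and 1, the stearoyl-CoA desaturase gene SCD, was called higher in CDK2i (change 1.09, and 0.94 with sums equal outside ribosomal protein and mitochondrial genes). NR1H3, which encodes LXRα, was at 14.7, 14.8 and 10.9 FPKM, changes of 0.01 and −0.42. The medians were −0.28 and −0.42 over all 11, and 0.12 and −0.42 over the 7, so here too the sign in CDK2i differed. Of the 7, which include the receptor genes NR1H2, NR1H3, RXRA and RXRB, 0 were called lower against vehicle. SREBF1, also among the 7, was at 143.3, 215.6 and 87.0 FPKM, changes of 0.59 and −0.72. In the deposited values it was called lower in EZH2i than in CDK2i (−1.31), against 6.53% of 7394 genes. Over all genes 8.07% were called lower and 3.27% higher in CDK2i, and 4.42% lower and 8.93% higher in EZH2i. Nothing is read from these counts or from those of the efflux list. Besides ABCA1, the targets below the minimum were ABCG1, with changes of −0.50 and −1.33 (−1.81 to −0.86), MYLIP (−0.28 and 0.27) and PLTP (−0.55 and −0.42).

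**Figure D5:**
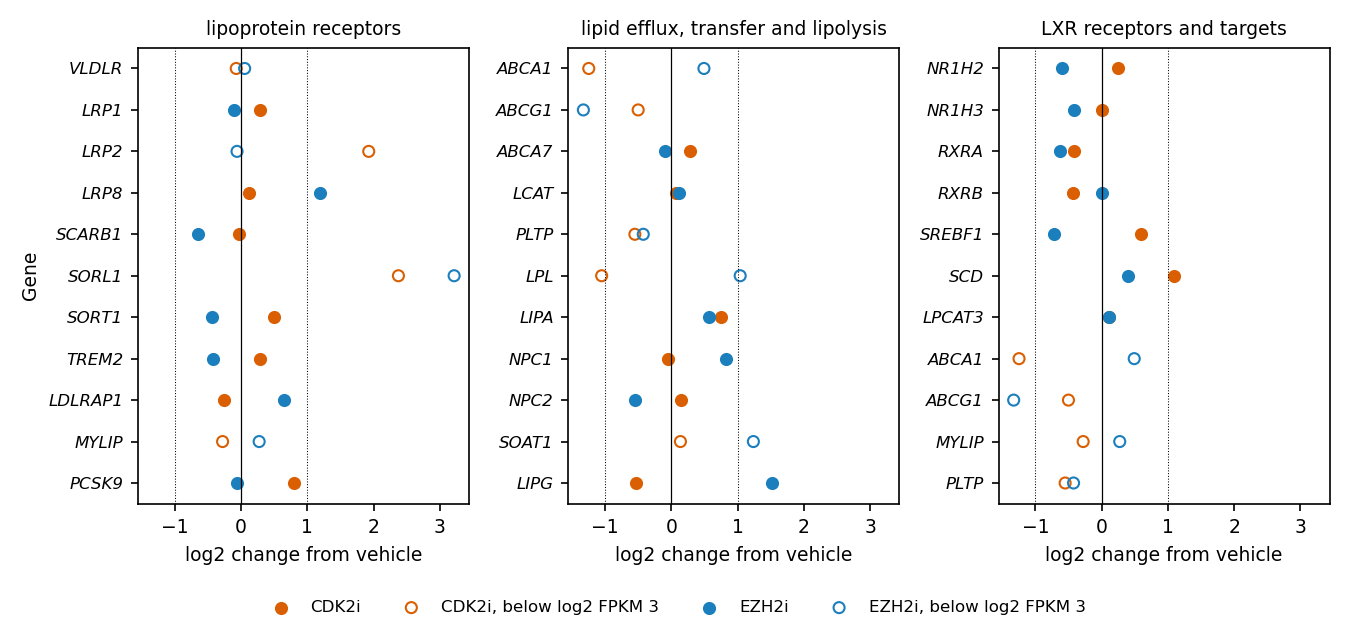
Log2 change from vehicle (x axis) in CDK2i (orange) and EZH2i (blue) of genes (y axis) encoding lipoprotein receptors, lipid efflux and lipolysis proteins and LXR receptors and targets; open symbols are genes at or below log2 FPKM 3 in all 3 tumors, and dotted lines mark 2-fold. LRP8 lies at 0.12 and 1.20 and NR1H3 at 0.01 and −0.42; CETP, listed at 0 in vehicle and CDK2i, is not drawn.

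Interferon-stimulated genes were set beside the APOL genes. Of 28 genes 6 reached the minimum, with IFI6 called higher in CDK2i (change 1.28) and IFITM1 called lower in EZH2i (change −1.27, and −0.63 with the trend removed). With 1 call among 6 in each comparison, against 3.27% of all genes higher in CDK2i and 4.42% lower in EZH2i, nothing is read from the counts. Over the 24 genes with no value at 0 the medians were −0.20 and 0.15, and over the 6 they were −0.06 and −0.09, so the sign in EZH2i differed.

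Markers of other cell types were read beside APOE and APOC1, since in bulk tumor RNA fewer cells of a type and less RNA per cell cannot be told apart. Host cells of these xenografts are mouse cells, while the values are of human genes. Because it is not stated whether mouse reads were removed, the markers cannot be taken as a measure of host cell content. Whether reads of the detected markers came from tumor cells or from mouse cells was not tested. Of 14 macrophage markers 8 were in the table, with summed levels of 11.9, 12.1 and 6.10 FPKM across vehicle, CDK2i and EZH2i. CD68, CD163 and AIF1 were each listed at 0 in at least 1 tumor, and the highest of their values was 0.152 FPKM, for AIF1 in vehicle. CD14 was the only one above the minimum, at 8.02, 7.95 and 3.15 FPKM, and was called lower in EZH2i (change −1.35, and −0.69 with the trend removed). Over the 5 macrophage markers with no value at 0 the median changes were −0.05 and 0.39, with 3 higher and 2 lower than vehicle in EZH2i. Those higher, LYZ, FCER1G and CSF1R, had at most 14 fragments in any library. Of 5 adipocyte markers 4 were in the table, and FABP4, a fatty acid binding protein, made up nearly all of their sum of 33.2, 19.3 and 3.54 FPKM. FABP4 was at 32.6, 18.6 and 3.03 FPKM and was called lower in EZH2i (change −3.43), while ADIPOQ and CIDEC were listed at 0 in vehicle. The 8 fibroblast markers summed to 25.04, 39.2 and 31.1 FPKM, with 5 higher and 3 lower than vehicle in CDK2i and 4 each way in EZH2i. COL1A1 led the sum at 13.0, 25.1 and 16.1 FPKM, and LUM was called higher in CDK2i (change 1.02, and 0.88 with a pseudocount of 1). COL3A1 went the other way, at 3.88, 1.43 and 0.927 FPKM, below the minimum, changes of −1.44 (−1.72 to −1.16) and −2.07 (−2.42 to −1.73), and DCN differed by −0.70 in CDK2i and 0.76 in EZH2i. The 4 endothelial markers in the table did not exceed 0.895 FPKM in sum. The part of these cells in the APOE and APOC1 levels was not tested.

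Likeness of pattern was measured as the distance in the plane of both log2 changes from vehicle, over 3 libraries and 7572 genes. Nearest to APOE was the microRNA gene hsa-mir-210 (changes −2.21 and −3.15, distance 0.38), followed by CD74, the invariant chain of MHC class II (−1.58 and −3.58, 0.89), and FAM84A (−1.28 and −3.62, 1.20). Nearest to APOC1 were the transcription factor genes FOXI1 (−3.33 and −1.71, 0.35) and DLX5 (−2.86 and −1.45, 0.87) and the clone-named AC007193.6 (−2.88 and −1.38, 0.87). Nearest to APOD was RPL21P28 (−1.67 and −1.94). The nearest to the others were BLOC1S4 for APOL2 (−1.68 and −0.27), PINK1 for CLU (0.72 and −0.49), RPL23AP64 for APOL6 (0.07 and 1.26) and TCF7L1 for APOL1 (0.61 and 0.12). Within a distance of 0.5 lay 1 gene each for APOE and APOC1 and 5 for APOD. For APOL2 there were 135, for CLU 416, for APOL6 554 and for APOL1 1114, so their nearest genes were picked from many alike.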

How the data were processed

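RNA from 3 xenograft tumor samples, 1 each for vehicle, CDK2i and EZH2i, was sequenced by the authors, whose processing notes name CASAVA and STAR and the build hg19 (GRCh37). The counting tool is not given in the sources used here. The deposited values are log2 FPKM for 29689 genes, and −9, the lowest value, was read as 0. Every column was mapped to a sample by its label.

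Differences of log2 FPKM were taken between libraries without a test, since limma, which the study names, cannot be fitted without replicates. A call needed a fold above 2 and a higher value above log2 FPKM 3. Depth was read from FPKM values of genes with a single annotated transcript, of which 77.4% to 78.5% lay within 1% of a whole number of 1 to 7 fragments. Fragments per gene used reference transcript lengths of GENCODE 44 on GRCh37. They are approximate, because the authors' gene lengths are not stated, and the union of all exons would give 1.00 to 2.35 times as many. Intervals are exact Poisson for levels and Clopper-Pearson for ratios of 2 libraries.

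Older symbols were matched through RefSeq synonyms (701 of 11109 expressed genes); 92.6% of expressed genes had a transcript. The GC and length trend was a polynomial of degree 3, fitted without ribosomal protein genes. The alternatives were other fold and expression thresholds, pseudocounts and scalings. The scripts were tested on simulated data. The genes named beyond the members were those called in a fixed list, up to 6 per list, 4 lipoprotein partners whatever they did, the genomic neighbors, and the 3 nearest patterns per member. Values of SORL1, APOM, APOO, of LXR targets below the minimum and of single markers were named after being seen. The members and lists were chosen with earlier results of these data known. Some genes of the lists are not reported here and were left out of the list counts and medians. Python 3.11.15, numpy 2.4.6, pandas 2.3.3, scipy 1.17.1 and matplotlib 3.10.9 were used.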

Additional observations from a re-analysis of the deposited data

How the results depend on the processing

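The number of called members, 2 in CDK2i, 2 in EZH2i and 1 between the treated tumors, moved with the expression minimum. Without a minimum, or with one of log2 FPKM 1, it was 4 in CDK2i, 4 in EZH2i and 4 between the treated tumors, and with one of log2 FPKM 5 it was 0 between the treated tumors. A fold threshold of 1.5 gave 2 members between the treated tumors, as did centring each library on its median gene. With the GC and length trend removed, 1 member was called in EZH2i. Without a minimum, over genes listed above 0 in both tumors, 19.4% were lower and 8.63% higher in CDK2i. In EZH2i the shares were 10.9% lower and 16.1% higher. Shares of all genes under the other alternatives are not given, so nothing is read from these member counts. The median change of the members stayed within the counting interval of the median member under each scaling and pseudocount, from −1.74 to −1.05 in CDK2i and −0.77 to −0.28 in EZH2i. Of 126 changes of the 7 members under the alternatives, 107 stayed within the counting interval, 19 moved outside it, and no called change reversed. APOL6 in CDK2i, APOL1 and APOL2 in EZH2i and APOE between the treated tumors, none of them called, took both signs across the alternatives. The split of all called genes depended on the scaling. Of the genes called from the deposited values, 28.9% were higher for CDK2i and 66.9% for EZH2i, against 50.7% and 31.8% after centring, 46.8% and 88.7% with equal summed FPKM, and 17.4% and 71.8% when the equal sums left out ribosomal protein and mitochondrial genes. With 1 library per condition no replicate could be left out. No paired analysis was possible because each group has 1 library and no result comes from a test. Depth limited the weak members, of which APOL1 and APOD had fewer than 50 approximate fragments in every library by reference transcript lengths.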
